A study of Mus musculus with 12 samples.

Results

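The genes described here are 37 targets and partners of the tumour suppressor p53, given as a list of symbols and found in the count table through GENCODE M21 names. All 37 matched a single gene identifier each, out of 55487 genes in the table. The rule that lists them uses no measured value, but the list was chosen with earlier results of these data known. By role they fall into 5 genes of the core loop around p53, 14 of cell death and survival, 5 of growth arrest and mitosis, 5 of DNA repair and nucleotide supply, 6 of metabolism and stress, and 2 of secreted and surface proteins.

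RNA sequencing was done on 12 mouse libraries in 4 groups of 3. The groups were primary embryonic fibroblasts (MEFs) with the genotype label Bach1 knockout in ferroptotic medium, the same MEFs in control medium, Hepa1 cells labelled wild type in ferroptotic medium, and Hepa1 cells in control medium. Hepa1 is a hepatoma cell line. Both media were conditioned for 48 h by immortalised MEFs in DMEM with 10% fetal bovine serum. The donors of the ferroptotic medium re-expressed Bach1 and were called ferroptotic, and those of the control medium were control cells. Cells dying by ferroptosis are killed by lipid peroxidation that needs iron. BACH1 acts as a repressor of heme and iron metabolism genes. All 4 groups stayed for 4 days in their medium, which was replaced daily and held 0.1 mM 2-mercaptoethanol and 0.4 mg/mL vitamin E. The MEFs are knockout and the Hepa1 cells wild type, so cell type and genotype cannot be told apart. Nothing in the labels states that replicates are separate cultures. The p-values therefore measure only how these samples vary, and that variation may be technical. In such bulk libraries, fewer cells of one kind and less RNA per cell cannot be told apart.

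The p53 protein is a transcription factor that is kept at low levels by the ubiquitin ligase MDM2 and becomes stable after DNA damage and other stresses. It then switches on genes that halt the cell cycle, repair DNA, adjust metabolism or start cell death, and it also induces its own inhibitors, which closes a feedback loop. Much of this control acts on the protein, so the level of Trp53 RNA does not measure p53 activity.

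Reads assigned to genes numbered 18.58 M to 23.4 M per library. A floor of 3 counts corresponds to 0.128 to 0.161 CPM (reads scaled to a common library total), and it covers counting error only. Col1a2, a fibroblast collagen gene, had 946669 reads in MEFs in ferroptotic medium, 1014955 in MEFs in control medium, 410 in Hepa1 cells in ferroptotic medium and 38 in Hepa1 cells in control medium. The summed level of 12 fibroblast markers, Col1a2 among them, was 40730 to 42130 CPM in MEFs in ferroptotic medium and 47007 to 49680 CPM in MEFs in control medium, against 2756 to 2819 CPM in Hepa1 cells in ferroptotic medium and 1850 to 2167 CPM in Hepa1 cells in control medium. Not all of these markers were low in Hepa1 cells. Col1a1 averaged 2246 CPM in Hepa1 cells in ferroptotic medium and 1514 CPM in control medium. Pdgfrb averaged 141 and 135 CPM in Hepa1 cells in ferroptotic and control medium, against 613 and 607 CPM in MEFs. Dcn, the decorin gene, went against the label. Its means were 12.9 and 3.75 CPM in MEFs in ferroptotic and control medium, against 329 and 293 CPM in Hepa1 cells. Fbln1 went against the label in ferroptotic medium only, with means of 16.8 CPM in MEFs and 50.2 CPM in Hepa1 cells. In control medium Fbln1 averaged 28.1 CPM in MEFs, against 11.1, 8.38 and 7.48 CPM in the Hepa1 libraries. Alb, the albumin gene, had 0 reads in MEFs in either medium, 18220 in Hepa1 cells in ferroptotic medium and 1988 in Hepa1 cells in control medium. Of 11 hepatocyte markers, 5 had no read in Hepa1 cells in ferroptotic medium and 3 in control medium, and Ttr, Apoa1 and Serpina1a were at 0 in all 12 libraries. Of the 410 Col1a2 reads in Hepa1 cells in ferroptotic medium, 368 came from replicate 3. The summed level of 4 epithelial markers ran from 0.226 to 2.58 CPM in MEFs in ferroptotic medium, against 0.239 to 0.455 CPM in MEFs in control medium and 2105 to 2207 CPM in Hepa1 cells in ferroptotic medium. Its highest MEF value was in replicate 3 in ferroptotic medium, with Krt18 at 1.95 CPM. The part of these traces of the other cell type in the results was not tested, and counts without each of the 2 libraries are given below.

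Promoters of members that hold the p53 half-site consensus are shown because the p53 protein is known to bind pairs of this sequence. The choice of members did not search for it, but they were listed as p53 targets. A higher share of half-sites among them is therefore in part built into the list. RefSeq promoter windows (GRCm38.p6), each from 250 bases before to 50 bases after an annotated start, were found for 30 of the 37 members, in 43 windows. Members without a window were Zmat3, Trp53inp1, Perp, Pmaip1, Ddb2, Rrm2b and Xpc. The half-site is palindromic, so a search of one strand covers both, and no other motif was searched. It stood without a mismatch in a window of 11 of 30 members (36.7%), against 2582 of 27025 genes with a window (9.55%). Counted by window, it was in 12 of 43 windows of members (27.9%), against 2745 of 32851 windows of all genes (8.36%). With 1 mismatch allowed outside the 4 core letters the counts were 21 members (70.0%), against 42.8% of all genes with a window. A pair of exact half-sites separated by at most 13 bases was in no member window and in 20 of the 27025 genes. With 1 mismatch allowed outside the core of each half-site, a pair was in 1 member (3.33%), Gtse1. The share of all genes with a window was 1.61%. The 11 members with an exact single half-site were Trp53, Mdm2, Ppm1d, Ccng1, Bax, Aen, Ei24, Gtse1, Polk, Sesn1 and Abhd4. Stretches of 90 bases are printed for 6 of them, 5′ to 3′ on the gene's own strand, with the half-site in capitals and positions counted from the annotated start as +1. They lie at chr11:69580244-69580333 (plus strand, half-site at -75 to -66) for Trp53, at chr10:117710895-117710984 (minus strand, -186 to -177) for Mdm2 and at chr11:85311082-85311171 (plus strand, -132 to -123) for Ppm1d. The others lie at chr11:40755422-40755511 (minus strand, -185 to -176) for Ccng1, at chr7:45467050-45467139 (minus strand, -201 to -192) for Bax and at chr10:41887226-41887315 (plus strand, -173 to -164) for Sesn1. The first 4 belong to the core loop, Bax to cell death, and Sesn1 is the member with the most negative difference between MEFs and Hepa1 cells in its response to the medium.
Trp53: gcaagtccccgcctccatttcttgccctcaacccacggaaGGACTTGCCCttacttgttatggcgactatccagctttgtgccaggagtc
Mdm2: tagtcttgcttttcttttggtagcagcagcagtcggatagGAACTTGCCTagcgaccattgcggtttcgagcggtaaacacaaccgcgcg
Ppm1d: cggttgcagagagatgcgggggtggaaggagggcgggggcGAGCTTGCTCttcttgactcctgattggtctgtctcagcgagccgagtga
Ccng1: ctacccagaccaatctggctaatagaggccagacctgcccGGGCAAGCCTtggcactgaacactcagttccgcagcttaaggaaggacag
Bax: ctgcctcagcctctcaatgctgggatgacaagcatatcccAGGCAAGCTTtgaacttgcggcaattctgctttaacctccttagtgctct
Sesn1: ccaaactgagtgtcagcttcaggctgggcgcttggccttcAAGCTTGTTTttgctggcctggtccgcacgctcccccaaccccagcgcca
A match is a description of the letters and not a site shown to be bound. Of the 11 members with an exact half-site, 10 rose in MEFs and none fell, and 7 rose and 1 fell in Hepa1 cells. Among all genes tested, 27.8% were called up and 27.2% down in MEFs, and 29.3% up and 28.8% down in Hepa1 cells. Of the 19 members with windows but no exact half-site, 14 rose and 4 fell in MEFs, and 9 rose and 5 fell in Hepa1 cells. The median log2 change in MEFs was 0.52 with the half-site and 0.64 without it, and in Hepa1 cells it was 0.23 with and 0.10 without. Of the 7 members with no window, 5 rose and 0 fell in MEFs (median 0.50), and 2 rose and 4 fell in Hepa1 cells (-0.08). Trp53 itself holds the half-site and was not called in either cell type.

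In MEFs most p53 targets were higher in ferroptotic than in control medium. A member was called when its Benjamini-Hochberg adjusted p in edgeR's quasi-likelihood test was under 0.05. By that rule 29 of 37 members rose and 4 fell, and 4 were not called. Gdf15, Gtse1, Trp53inp1 and Pidd1 had the largest rises, with log2 changes of 1.76, 1.41, 1.39 and 1.39. The members that fell were Mdm4, Fas, Dram1 and Plk3. Among all 14441 genes tested in MEFs, 55.0% were called, 27.8% up and 27.2% down. The median log2 change was 0.57 over the members and 0.00 over all genes tested. The 3 libraries in ferroptotic medium did not overlap the 3 in control medium for 33 of 37 members, 29 above and 4 below, against 60.2% of all genes tested. Without any scaling beyond total counts, 31 members rose and 4 fell, and the calls over all genes were 5204 up and 2963 down, against 4009 up and 3934 down with scaling. Without MEF ferroptotic replicate 3 the members' counts were 28 up and 4 down.

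In Hepa1 cells the same members moved in both directions. In the quasi-likelihood test 18 of 37 rose, 10 fell and 9 were not called, with Sesn1 at 1.32 and Gtse1 at 0.88 as the largest rises and Plk2 at -1.03 as the largest fall on the log2 scale. Among all 13169 genes tested in Hepa1 cells, 58.1% were called, 29.3% up and 28.8% down. The median log2 change was 0.10 over the members and 0.00 over all genes tested. The 2 groups did not overlap for 28 members, 17 above and 11 below, against 62.6% of all genes tested. Without Hepa1 ferroptotic replicate 3 the counts were 16 up and 9 down. In both cell types 17 members rose and 3 fell (Mdm4, Dram1 and Plk3). Pmaip1, Plk2, Ddb2 and Abhd4 rose in MEFs and fell in Hepa1 cells, and Fas fell in MEFs and rose in Hepa1 cells. How many of all genes had the same pairs of calls was not counted, so these paired counts have no share to be read against.

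The difference of the 2 responses, MEF minus Hepa1, was the interaction term of a fit to all 12 libraries. It was called higher in MEFs for 26 members and lower for 3 (Fas, Dram1 and Sesn1), and it was not called for 8. Among all 15627 genes in that fit, 44.2% were called, 20.9% up and 23.3% down. The median difference was 0.37 over the members and -0.03 over all genes. Plk2 had the largest difference, 1.72 (SE 0.0517, adjusted p = 3.39e-29) on the log2 scale, followed by Gdf15 at 1.70 (SE 0.0983, adjusted p = 1.30e-19). The difference for Dram1 missed the threshold in the DESeq2 Wald test (adjusted p = 0.0666) and without scaling (adjusted p = 0.0584).

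**Figure D1:**
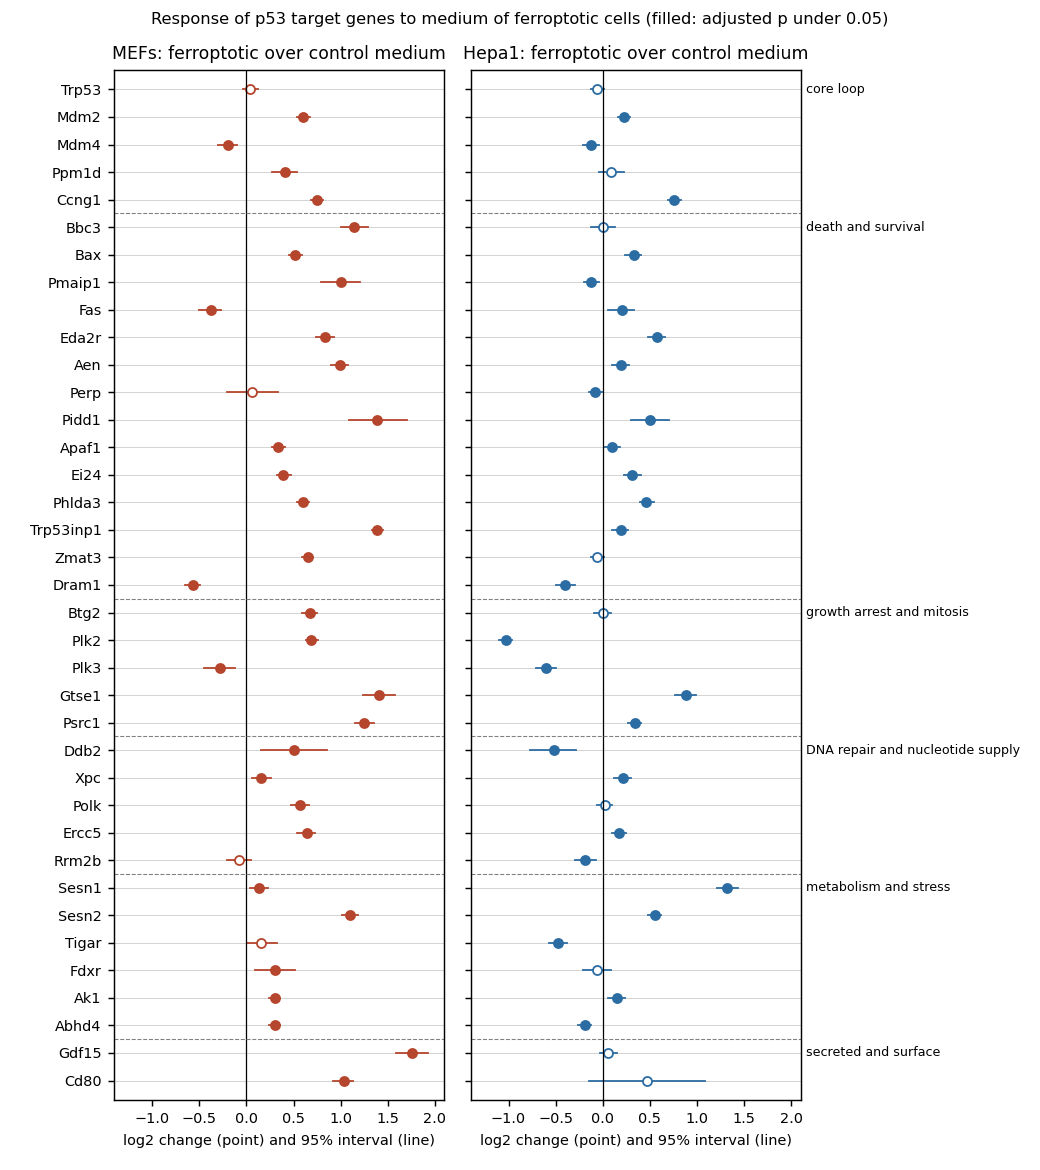
Log2 change of each of the 37 members, ferroptotic over control medium, in MEFs (left) and Hepa1 cells (right), ordered by role; points are edgeR estimates, lines 95% intervals, and filled points have an adjusted p under 0.05. In MEFs 29 filled points lie right of 0 and 4 left of it, and in Hepa1 cells 18 lie right and 10 left.

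**Figure D2:**
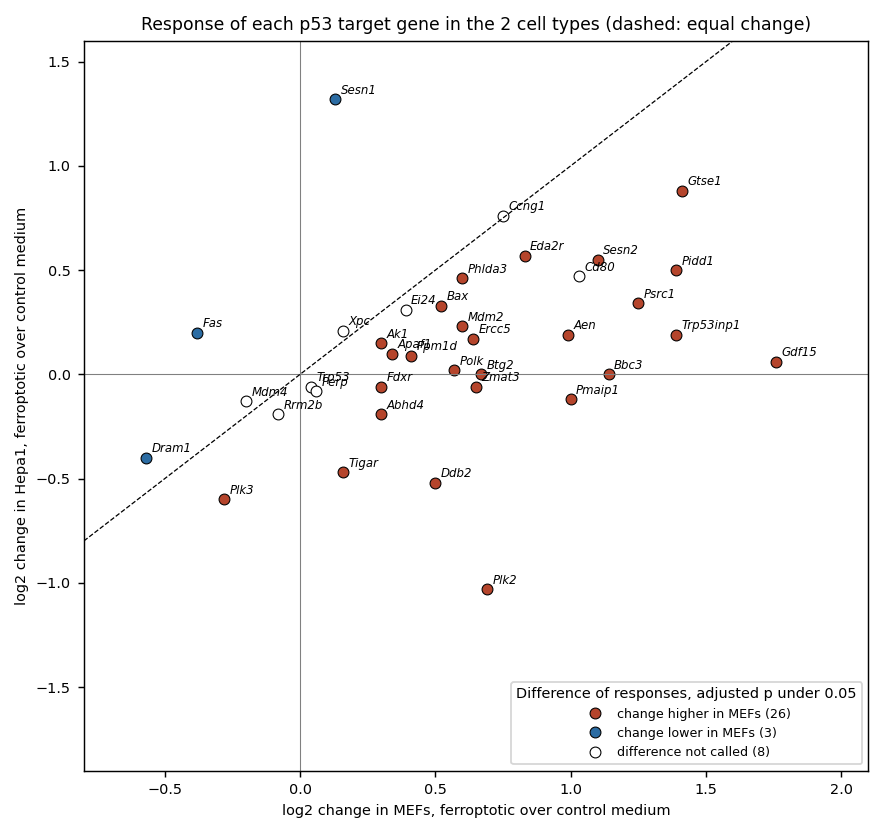
Log2 change in Hepa1 cells (vertical) against that in MEFs (horizontal) for each member, coloured by the test of their difference. The 26 members with a higher change in MEFs lie below the dashed line of equal change, Fas, Sesn1 and Dram1 above it, and Ccng1 on it.

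In the core loop, the RNA of p53 itself was not called in either cell type, while the genes of its inhibitors moved in both directions. Trp53 (ENSMUSG00000059552, chromosome 11, 69580359 to 69591873, plus strand, GRCm38) had 54.9, 55.6 and 58.9 CPM in MEFs in ferroptotic medium, against 54.6, 54.0 and 56.4 CPM in control medium. The groups overlapped, and the log2 change was 0.04 (SE 0.0413, adjusted p = 0.432), with a 95% interval of -0.04 to 0.12. It had 219.6, 218 and 216 CPM in Hepa1 cells in ferroptotic medium, against 224, 224 and 235 CPM in control medium. All 3 Hepa1 libraries in ferroptotic medium lay below the 3 in control medium, yet the change of -0.06 (SE 0.0341, adjusted p = 0.108) was small and not called. The MEF change was called only without scaling (0.108, adjusted p = 0.0249), and the Hepa1 change only without Hepa1 control replicate 2 (adjusted p = 0.0386), among the alternatives run.

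Mdm2 (ENSMUSG00000020184, chromosome 10, 117688875 to 117710758, minus strand), the ubiquitin ligase that marks p53 for degradation, had 117, 122 and 125 CPM in MEFs in ferroptotic medium, against 79.3, 80.8 and 79.9 CPM in control medium. Every ferroptotic-medium library was above every control library, and Mdm2 rose by 0.60 (SE 0.0336, adjusted p = 5.72e-22) on the log2 scale. It had 708, 687 and 681 CPM in Hepa1 cells in ferroptotic medium, against 579.6, 607 and 587 CPM in control medium. These groups did not overlap either, and the rise was 0.23 (SE 0.0317, adjusted p = 5.77e-07), with a called difference between the cell types of 0.37 (SE 0.051, adjusted p = 3.71e-08). Ccng1 (ENSMUSG00000020326, chromosome 11, 40748552 to 40755311, minus strand), the gene of cyclin G1, which brings a phosphatase to MDM2, had 575, 578 and 557 CPM in MEFs in ferroptotic medium, against 346, 330.3 and 339 CPM in control medium. It had 628, 648 and 646 CPM in Hepa1 cells in ferroptotic medium, against 376, 398 and 361 CPM in control medium. Neither pair of groups overlapped, and Ccng1 rose by 0.75 (SE 0.0285, adjusted p = 7.43e-29) in MEFs and 0.76 (SE 0.0347, adjusted p = 7.90e-17) in Hepa1 cells. The difference of -0.01 (SE 0.0505, adjusted p = 0.94) was not called, with a 95% interval of -0.11 to 0.09.

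Mdm4 (ENSMUSG00000054387, chromosome 1, 132959484 to 133030561, minus strand), a relative of MDM2 that blocks the activation domain of p53, had 39.5, 45.3 and 43.7 CPM in MEFs in ferroptotic medium, against 50.4, 51.0 and 46.2 CPM in control medium. All 3 MEF libraries in ferroptotic medium were lower than those in control medium, and Mdm4 fell by 0.20 (SE 0.0477, adjusted p = 0.000341) on the log2 scale. It had 115, 109 and 116 CPM in Hepa1 cells in ferroptotic medium, against 124, 131 and 115 CPM in control medium. Here the highest library in ferroptotic medium was above the lowest in control medium, and the fall was 0.13 (SE 0.0435, adjusted p = 0.0153), a call that was lost without scaling (adjusted p = 0.127) and without Hepa1 ferroptotic replicate 2 or control replicate 2 (adjusted p = 0.114 and 0.0722). Without that control library the Mdm4 value was -0.0833. Ppm1d (ENSMUSG00000020525, chromosome 11, 85311244 to 85347066, plus strand), which encodes the phosphatase WIP1 that removes activating phosphates from p53, had 20.1, 20.1 and 21.7 CPM in MEFs in ferroptotic medium, against 15.8, 14.8 and 16.2 CPM in control medium. These groups did not overlap and Ppm1d rose by 0.41 (SE 0.0663, adjusted p = 5.92e-07). It had 24.0, 21.8 and 24.3 CPM in Hepa1 cells in ferroptotic medium, against 22.2, 20.8 and 22.8 CPM in control medium. The Hepa1 groups overlapped, and the log2 change of 0.09 (SE 0.0671, adjusted p = 0.243) was not called.

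Cdkn1a, the p21 cell cycle inhibitor and the best known p53 target outside the members, had 385, 378 and 393 CPM in MEFs in ferroptotic medium, against 199.9, 196 and 199 CPM in control medium. It had 709.5, 709 and 714 CPM in Hepa1 cells in ferroptotic medium, against 603, 611 and 641 CPM in control medium. The groups did not overlap in either cell type, and Cdkn1a rose by 0.96 (SE 0.0285, adjusted p = 1.38e-33) in MEFs and by 0.20 (SE 0.0317, adjusted p = 3.83e-06) in Hepa1 cells, with a difference of 0.76 (SE 0.0484, adjusted p = 1.57e-17). Of 30 further p53 targets that are not members, 28 could be tested in MEFs, where 17 rose and 5 fell with a median log2 change of 0.33. In Hepa1 cells 25 could be tested, of which 7 rose and 11 fell with a median of -0.05. The shares over all genes tested were 27.8% up and 27.2% down in MEFs, and 29.3% up and 28.8% down in Hepa1 cells. The smallest adjusted p in MEFs belonged to Cdkn1a, Ephx1 (0.92), Steap3 (-0.72) and Notch1 (0.91), and in Hepa1 cells to Ckap2 (1.43), Kitl (-0.89), Epha2 (-0.64) and Sat1 (-0.74), all log2 changes. Ephx1 encodes an epoxide hydrolase, Notch1 a receptor of cell fate, Kitl the ligand of the receptor KIT, and Sat1 an enzyme of polyamine breakdown.

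**Figure D3:**
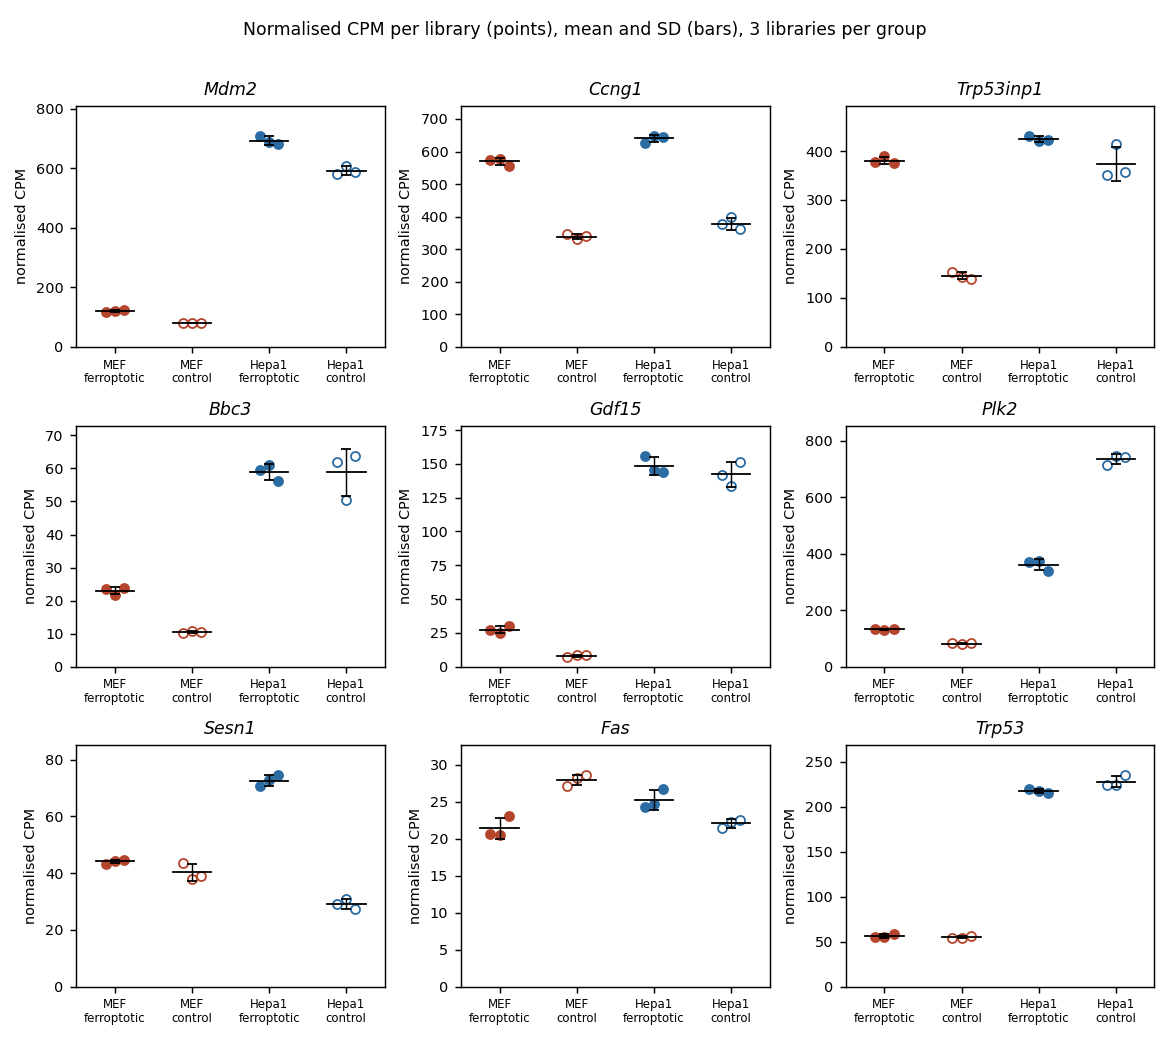
Normalised CPM of 9 members in each library (points), with the mean and SD of 3 libraries per group (bars), groups from left MEF ferroptotic, MEF control, Hepa1 ferroptotic and Hepa1 control medium. Trp53 shows near-equal levels within each cell type, Gdf15 and Bbc3 are higher in ferroptotic medium in MEFs, Plk2 is lower in ferroptotic medium in Hepa1 cells, and Fas goes opposite ways.

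Of the 14 genes of cell death and survival, 11 rose and 2 fell in MEFs (median log2 change 0.63), and 9 rose and 3 fell in Hepa1 cells (0.19). Beside this count and those of the roles below, the shares over all genes were 27.8% up and 27.2% down in MEFs. In Hepa1 cells they were 29.3% up and 28.8% down. The BH3-only genes, whose proteins set off the mitochondrial route of apoptosis, were higher in ferroptotic medium in MEFs. Bbc3, which encodes PUMA (ENSMUSG00000002083, chromosome 7, 16308393 to 16318205, plus strand), had 23.7, 21.7 and 23.7 CPM in MEFs in ferroptotic medium, against 10.1, 10.8 and 10.4 CPM in control medium. The 2 MEF groups lay far apart, and Bbc3 rose by 1.14 (SE 0.0724, adjusted p = 3.93e-20). It had 59.5, 61.0 and 56.2 CPM in Hepa1 cells in ferroptotic medium, against 62.0, 50.5 and 63.9 CPM in control medium. Those groups overlapped, with control replicate 2 as the lowest library, and the change was 0.00 (SE 0.0616, adjusted p = 0.975). Pmaip1, which encodes NOXA, had 10.0, 11.2 and 10.6 CPM in MEFs in ferroptotic medium, against 5.79, 5.28 and 4.88 CPM in control medium. Its groups did not overlap and it rose by 1.00 (SE 0.102, adjusted p = 1.45e-12). It had 179, 172 and 175 CPM in Hepa1 cells in ferroptotic medium, against 186, 203 and 183 CPM in control medium. In Hepa1 cells all libraries in ferroptotic medium were below the controls and Pmaip1 fell by 0.12 (SE 0.0389, adjusted p = 0.00841), a call lost without scaling (adjusted p = 0.0962) and without Hepa1 ferroptotic replicate 2 (adjusted p = 0.0580). Without Hepa1 control replicate 2 the Pmaip1 value was -0.0759, still called. The difference between the cell types was 1.14 (SE 0.101, adjusted p = 3.24e-13) for Bbc3 and 1.12 (SE 0.107, adjusted p = 2.39e-12) for Pmaip1.

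Bax (ENSMUSG00000003873, chromosome 7, 45461697 to 45466898, minus strand), whose protein forms pores in the outer mitochondrial membrane, had 103, 106 and 110.2 CPM in MEFs in ferroptotic medium, against 73.9, 73.5 and 74.7 CPM in control medium. It had 165, 163 and 162 CPM in Hepa1 cells in ferroptotic medium, against 138, 121 and 132 CPM in control medium. Neither pair of groups overlapped, and Bax rose by 0.52 (SE 0.0349, adjusted p = 1.01e-18) in MEFs and 0.33 (SE 0.0415, adjusted p = 1.13e-07) in Hepa1 cells. Its exons overlap those of the gene Gm45808 on the same strand, so reads there may be ambiguous between the 2 genes. Pidd1, which encodes the scaffold of the caspase-2 complex called the PIDDosome, had 5.97, 5.38 and 6.69 CPM in MEFs in ferroptotic medium, against 2.58, 1.91 and 2.39 CPM in control medium. It had 9.78, 10.5 and 10.7 CPM in Hepa1 cells in ferroptotic medium, against 8.06, 6.76 and 7.06 CPM in control medium. Pidd1 was low in all groups, the ferroptotic-medium libraries lay above the controls in both cell types, and it rose by 1.39 (SE 0.15, adjusted p = 2.83e-12) in MEFs and 0.50 (SE 0.0997, adjusted p = 9.13e-05) in Hepa1 cells. Its difference was 0.89 (SE 0.181, adjusted p = 4.89e-05). Apaf1, the core of the apoptosome, was not among the larger changes, with 0.34 (SE 0.0361, adjusted p = 1.01e-11) in MEFs and 0.10 (SE 0.0372, adjusted p = 0.0239) in Hepa1 cells. The Hepa1 call for Apaf1 was lost in DESeq2 (adjusted p = 0.0537), without a count filter (adjusted p = 0.0690) and without any 1 of 5 of the 6 libraries, the exception being control replicate 2.

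The 2 receptor genes Fas and Eda2r went opposite ways in MEFs and both rose in Hepa1 cells. Fas (ENSMUSG00000024778, chromosome 19, 34290666 to 34327772, plus strand), the receptor of FAS ligand, had 20.6, 20.5 and 23.1 CPM in MEFs in ferroptotic medium, against 27.1, 28.1 and 28.5 CPM in control medium. All MEF libraries in ferroptotic medium were below the controls, and Fas fell by 0.38 (SE 0.0584, adjusted p = 1.46e-07). It had 24.3, 24.7 and 26.8 CPM in Hepa1 cells in ferroptotic medium, against 21.4, 22.3 and 22.5 CPM in control medium. Here the ferroptotic-medium libraries were above the controls with replicate 3 the highest, and Fas rose by 0.20 (SE 0.0644, adjusted p = 0.0106). Without that replicate the log2 change was 0.151 and was not called (adjusted p = 0.0905). The difference between the cell types was -0.58 (SE 0.089, adjusted p = 4.34e-07). Eda2r (ENSMUSG00000034457, chromosome X, 97333840 to 97377216, minus strand), the receptor of ectodysplasin A2, had 55.4, 55.1 and 55.9 CPM in MEFs in ferroptotic medium, against 31.5, 31.6 and 30.3 CPM in control medium. It had 103, 98.3 and 99.4 CPM in Hepa1 cells in ferroptotic medium, against 64.7, 72.3 and 65.5 CPM in control medium. Its groups were apart in both cell types, and Eda2r rose by 0.83 (SE 0.0457, adjusted p = 2.25e-22) in MEFs and by 0.57 (SE 0.0453, adjusted p = 1.40e-11) in Hepa1 cells, with a difference of 0.26 (SE 0.0653, adjusted p = 0.000916).

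Aen, a nuclease gene that adds to apoptosis, had 64.9, 61.4 and 66.3 CPM in MEFs in ferroptotic medium, against 33.4, 33.1 and 30.6 CPM in control medium. It had 83.8, 87.2 and 84.9 CPM in Hepa1 cells in ferroptotic medium, against 77.1, 72.4 and 74.6 CPM in control medium. No groups overlapped, and Aen rose by 0.99 (SE 0.0463, adjusted p = 2.80e-25) in MEFs and 0.19 (SE 0.0423, adjusted p = 0.000322) in Hepa1 cells, with a difference of 0.79 (SE 0.064, adjusted p = 2.28e-14). Trp53inp1 (ENSMUSG00000028211, chromosome 4, 11156431 to 11174379, plus strand), whose nuclear protein assists p53 and takes part in autophagy, had 377, 389 and 376 CPM in MEFs in ferroptotic medium, against 153, 143 and 139.6 CPM in control medium. It had 431, 420.1 and 422 CPM in Hepa1 cells in ferroptotic medium, against 350.1, 413 and 356 CPM in control medium. The MEF groups lay far apart, while in Hepa1 cells control replicate 2 came close to the ferroptotic-medium libraries. Trp53inp1 rose by 1.39 (SE 0.0309, adjusted p = 3.05e-39) in MEFs and 0.19 (SE 0.0431, adjusted p = 0.00056) in Hepa1 cells, and the difference was 1.20 (SE 0.0599, adjusted p = 2.95e-21). Zmat3, the gene of an RNA-binding zinc finger protein, had 246, 243 and 239 CPM in MEFs in ferroptotic medium, against 154, 156 and 153 CPM in control medium. It had 207, 205 and 205 CPM in Hepa1 cells in ferroptotic medium, against 215, 219 and 209 CPM in control medium. It rose in MEFs by 0.65 (SE 0.0287, adjusted p = 3.81e-26), with groups apart. In Hepa1 cells the ferroptotic-medium libraries were all slightly below the controls and the change of -0.06 (SE 0.034, adjusted p = 0.137) was not called, with a difference of 0.71 (SE 0.0474, adjusted p = 6.54e-17).

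Phlda3, whose protein competes with the survival kinase AKT for membrane lipids, had 245, 234 and 248 CPM in MEFs in ferroptotic medium, against 159.5, 160.3 and 159 CPM in control medium. It had 410.0, 409 and 407 CPM in Hepa1 cells in ferroptotic medium, against 308, 275 and 307 CPM in control medium. The groups did not overlap in either cell type, and Phlda3 rose by 0.60 (SE 0.0293, adjusted p = 2.62e-24) in MEFs and 0.46 (SE 0.0372, adjusted p = 1.81e-11) in Hepa1 cells. The difference of 0.14 (SE 0.0518, adjusted p = 0.0279) was called in the fit of all 12 libraries, and lost without any 1 of 5 of them, with adjusted p of 0.0567 to 0.0928. Dram1 (ENSMUSG00000020057, chromosome 10, 88322804 to 88379080, minus strand), a lysosomal membrane protein gene linked to autophagy, had 43.9, 45.2 and 44.1 CPM in MEFs in ferroptotic medium, against 65.4, 68.1 and 64.0 CPM in control medium. It had 44.9, 46.9 and 43.0 CPM in Hepa1 cells in ferroptotic medium, against 61.6, 57.7 and 58.3 CPM in control medium. In both cell types every library in ferroptotic medium was below the controls. Dram1 fell by 0.57 (SE 0.0414, adjusted p = 2.31e-17) in MEFs and by 0.40 (SE 0.0498, adjusted p = 8.92e-08) in Hepa1 cells.

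Ei24 and Perp complete the genes of cell death. Ei24, an endoplasmic reticulum protein gene, rose by 0.39 (SE 0.0351, adjusted p = 3.32e-14) in MEFs and 0.31 (SE 0.0416, adjusted p = 2.84e-07) in Hepa1 cells, and its exons overlap those of Gm26787 on the opposite strand. Perp, a membrane protein gene of cell contacts, was not called in MEFs (0.06 (SE 0.134, adjusted p = 0.724)). Its fall of 0.08 (SE 0.0335, adjusted p = 0.0408) in Hepa1 cells was lost with the replicate block (adjusted p = 0.0689), with all 12 libraries in the fit (adjusted p = 0.0730), without a count filter (adjusted p = 0.0591), without scaling (adjusted p = 0.391), and without each of 4 libraries in turn.

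All 5 genes of growth arrest and mitosis had a called difference with the higher change in MEFs, against 20.9% of all genes tested. In MEFs 4 of 5 rose and 1 fell (median log2 change 0.69), and in Hepa1 cells 2 rose and 2 fell (0.00). Plk2 (ENSMUSG00000021701, chromosome 13, 110395046 to 110400844, plus strand), a polo-like kinase gene induced by p53, had 133, 131 and 134 CPM in MEFs in ferroptotic medium, against 83.2, 80.4 and 82.5 CPM in control medium. It had 369.9, 373 and 338 CPM in Hepa1 cells in ferroptotic medium, against 715, 747 and 743 CPM in control medium. The MEF libraries in ferroptotic medium were above the controls and the Hepa1 ones far below them. Plk2 rose by 0.69 (SE 0.0324, adjusted p = 3.47e-25) in MEFs and fell by 1.03 (SE 0.036, adjusted p = 1.75e-19) in Hepa1 cells. Plk3, a related kinase gene, had 9.41, 11.0 and 10.2 CPM in MEFs in ferroptotic medium, against 12.3, 12.7 and 12.3 CPM in control medium. It had 44.1, 41.9 and 40.4 CPM in Hepa1 cells in ferroptotic medium, against 61.6, 63.6 and 66.8 CPM in control medium. All libraries in ferroptotic medium were below the controls, and Plk3 fell by 0.28 (SE 0.0819, adjusted p = 0.00277) in MEFs and 0.60 (SE 0.0504, adjusted p = 3.60e-11) in Hepa1 cells, with a difference of 0.32 (SE 0.0935, adjusted p = 0.00456). Its exons overlap Tctex1d4 on the opposite strand, and the strand setting of the counting is not given. Btg2 (ENSMUSG00000020423, chromosome 1, 134075170 to 134079120, minus strand), an antiproliferative gene, had 72.5, 69.0 and 71.0 CPM in MEFs in ferroptotic medium, against 42.7, 44.8 and 46.2 CPM in control medium. It had 80.5, 78.8 and 79.3 CPM in Hepa1 cells in ferroptotic medium, against 75.7, 78.9 and 83.6 CPM in control medium. The MEF groups were apart and Btg2 rose by 0.67 (SE 0.0415, adjusted p = 3.99e-20), whereas the Hepa1 groups overlapped, with a change of 0.00 (SE 0.0438, adjusted p = 0.967).

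Gtse1 and Psrc1 encode microtubule-binding proteins, and Gtse1 is expressed in S and G2 phase and restrains p53. Gtse1 (ENSMUSG00000022385, chromosome 15, 85859745 to 85876573, plus strand) had 18.7, 19.7 and 19.8 CPM in MEFs in ferroptotic medium, against 8.04, 6.37 and 7.56 CPM in control medium. It had 63.6, 61.8 and 57.9 CPM in Hepa1 cells in ferroptotic medium, against 34.0, 32.5 and 33.0 CPM in control medium. The groups were apart in both cell types, and it rose by 1.41 (SE 0.0853, adjusted p = 3.36e-21) in MEFs and by 0.88 (SE 0.0524, adjusted p = 2.43e-14) in Hepa1 cells. Psrc1 (ENSMUSG00000068744, chromosome 3, 108383839 to 108388231, plus strand) had 58.6, 59.5 and 64.3 CPM in MEFs in ferroptotic medium, against 25.4, 27.0 and 24.3 CPM in control medium. It had 355, 355 and 346 CPM in Hepa1 cells in ferroptotic medium, against 284, 277 and 274 CPM in control medium. It too was higher in every library in ferroptotic medium, and rose by 1.25 (SE 0.0505, adjusted p = 3.40e-28) and 0.34 (SE 0.0326, adjusted p = 7.24e-10) in MEFs and Hepa1 cells. Beside these 2 genes, 20 genes of the G2 and M phases had a summed level of 117 to 126 CPM in MEFs in ferroptotic medium, against 58.0 to 65.4 CPM in MEFs in control medium. In Hepa1 cells the summed level was 1464 to 1545 CPM in ferroptotic medium, against 324 to 400.1 CPM in control medium. Of these 20, 19 rose and 1 fell in MEFs (median log2 change 1.11), and 20 rose in Hepa1 cells (2.46). Over all genes tested, 27.8% were called up and 27.2% down in MEFs, and 29.3% up and 28.8% down in Hepa1 cells. The difference was called lower in MEFs for 19 of the 20 and higher for none, against 23.3% lower and 20.9% higher over all genes tested. For Gtse1 (0.53 (SE 0.0974, adjusted p = 1.27e-05)) and Psrc1 (0.91 (SE 0.061, adjusted p = 5.99e-17)) it was called higher. The part of the cell cycle genes in the results for Gtse1 and Psrc1 was not tested.

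Of the 5 genes of DNA repair and nucleotide supply, 4 rose and none fell in MEFs (median log2 change 0.50), and 2 rose and 2 fell in Hepa1 cells (0.02). Ddb2 (ENSMUSG00000002109, chromosome 2, 91211572 to 91236982, minus strand), which with XPC finds damaged bases for nucleotide excision repair, had 2.40, 2.91 and 2.74 CPM in MEFs in ferroptotic medium, against 2.11, 1.82 and 1.76 CPM in control medium. It had 5.34, 5.56 and 4.39 CPM in Hepa1 cells in ferroptotic medium, against 7.03, 7.67 and 7.22 CPM in control medium. It was low in all libraries, with 184 reads in all in MEFs in ferroptotic medium and 120 in MEFs in control medium. The MEF libraries in ferroptotic medium lay above the controls and the Hepa1 ones below. Ddb2 rose by 0.50 (SE 0.177, adjusted p = 0.0126) in MEFs and fell by 0.52 (SE 0.118, adjusted p = 0.00039) in Hepa1 cells, with a difference of 1.02 (SE 0.21, adjusted p = 6.25e-05). The MEF call was lost in DESeq2 (adjusted p = 0.0746) and without MEF control replicate 3 (adjusted p = 0.0539) or MEF ferroptotic replicate 2 (adjusted p = 0.0575). The exons of Ddb2 overlap those of Acp2 on the opposite strand. Xpc, its partner gene, had smaller changes of 0.16 (SE 0.0495, adjusted p = 0.00438) in MEFs and 0.21 (SE 0.0457, adjusted p = 0.000264) in Hepa1 cells, both up.

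Polk (ENSMUSG00000021668, chromosome 13, 96480690 to 96542579, minus strand), a DNA polymerase gene for copying past lesions, had 50.8, 50.4 and 53.2 CPM in MEFs in ferroptotic medium, against 37.1, 34.0 and 33.2 CPM in control medium. It had 92.5, 93.1 and 96.5 CPM in Hepa1 cells in ferroptotic medium, against 91.6, 95.8 and 91.0 CPM in control medium. The MEF groups were apart and Polk rose by 0.57 (SE 0.0472, adjusted p = 2.85e-15), and in Hepa1 cells the groups overlapped, with a change of 0.02 (SE 0.0406, adjusted p = 0.707). Ercc5, which encodes an endonuclease of excision repair, had 46.5, 46.0 and 45.4 CPM in MEFs in ferroptotic medium, against 29.7, 31.0 and 27.9 CPM in control medium. It had 156, 152 and 154 CPM in Hepa1 cells in ferroptotic medium, against 136, 141 and 132 CPM in control medium. Ercc5 was higher in each library in ferroptotic medium than in any control library of the same cell type, and rose by 0.64 (SE 0.049, adjusted p = 1.64e-16) in MEFs and 0.17 (SE 0.037, adjusted p = 0.000224) in Hepa1 cells. Rrm2b, a subunit gene of ribonucleotide reductase that overlaps Gm49085 on the opposite strand, had a change of -0.08 (SE 0.0638, adjusted p = 0.278) in MEFs, not called, and fell by 0.19 (SE 0.0552, adjusted p = 0.00488) in Hepa1 cells. Without Hepa1 control replicate 2 the Rrm2b value was -0.124, still called.

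Among the 6 metabolism and stress genes, 5 rose and none fell in MEFs (median log2 change 0.30), and 3 rose and 2 fell in Hepa1 cells (0.04). The 2 sestrin genes, whose proteins restrain the growth kinase mTORC1 when amino acids are short, parted. Sesn1 (ENSMUSG00000038332, chromosome 10, 41809935 to 41908424, plus strand) had 43.3, 44.4 and 44.6 CPM in MEFs in ferroptotic medium, against 43.7, 38.1 and 39.0 CPM in control medium. It had 70.9, 72.7 and 74.5 CPM in Hepa1 cells in ferroptotic medium, against 29.0, 31.1 and 27.4 CPM in control medium. The MEF groups overlapped, as control replicate 1 lay within the range of the ferroptotic-medium libraries, and the rise of 0.13 (SE 0.0479, adjusted p = 0.016) was lost in DESeq2 (adjusted p = 0.0763) and without MEF control replicate 2 or 3 or MEF ferroptotic replicate 3 (adjusted p = 0.149, 0.0868 and 0.0521). In Hepa1 cells every library in ferroptotic medium was far above the controls, and Sesn1 rose by 1.32 (SE 0.0532, adjusted p = 2.88e-18). The difference of -1.19 (SE 0.0745, adjusted p = 7.30e-18) was the most negative of any member. Sesn2 (ENSMUSG00000028893, chromosome 4, 132492032 to 132510501, minus strand) had 96.0, 95.2 and 94.2 CPM in MEFs in ferroptotic medium, against 42.0, 48.1 and 43.3 CPM in control medium. It had 267, 273 and 262 CPM in Hepa1 cells in ferroptotic medium, against 185, 180.1 and 183 CPM in control medium. Its groups were apart in both cell types, and it rose by 1.10 (SE 0.0412, adjusted p = 2.29e-29) in MEFs and 0.55 (SE 0.0339, adjusted p = 6.25e-14) in Hepa1 cells, with a difference of 0.54 (SE 0.056, adjusted p = 3.20e-11) in the opposite direction to that of Sesn1.

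Tigar, an enzyme gene that lowers glycolytic flux and overlaps Platr31 on the opposite strand, changed by 0.16 (SE 0.0778, adjusted p = 0.0677) in MEFs, not called, and fell by 0.47 (SE 0.0457, adjusted p = 6.96e-10) in Hepa1 cells. Its MEF change was called without scaling (0.233, adjusted p = 0.00903) and without MEF ferroptotic replicate 2 (0.22, adjusted p = 0.0250). Abhd4, a lipase gene of lipid signalling, rose by 0.30 (SE 0.0294, adjusted p = 8.37e-13) in MEFs and fell by 0.19 (SE 0.0338, adjusted p = 2.25e-05) in Hepa1 cells. Ak1, an adenylate kinase gene, rose by 0.30 (SE 0.03, adjusted p = 1.15e-12) in MEFs and by 0.15 (SE 0.0444, adjusted p = 0.00592) in Hepa1 cells, where the 2 groups overlapped. Fdxr, the gene of ferredoxin reductase, which feeds electrons to mitochondrial iron-sulfur and steroid synthesis, rose by 0.30 (SE 0.108, adjusted p = 0.0146) in MEFs and had -0.06 (SE 0.0735, adjusted p = 0.477) in Hepa1 cells, not called. The Fdxr call in MEFs was lost in DESeq2 (adjusted p = 0.0759) and without MEF control replicate 2 or 3 or MEF ferroptotic replicate 1 (adjusted p = 0.0548, 0.0607 and 0.0925).

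Both genes of secreted and surface proteins rose in MEFs, and neither was called in Hepa1 cells. Gdf15 (ENSMUSG00000038508, chromosome 8, 70629393 to 70632456, minus strand), a secreted factor of the TGF-beta family that marks cell stress, had 26.9, 25.1 and 30.4 CPM in MEFs in ferroptotic medium, against 7.23, 8.79 and 8.34 CPM in control medium. The MEF libraries in ferroptotic medium were all well above the controls, and Gdf15 rose by 1.76 (SE 0.0833, adjusted p = 5.21e-26). It had 156, 145 and 144 CPM in Hepa1 cells in ferroptotic medium, against 141, 134 and 151 CPM in control medium. The Hepa1 groups overlapped, and the change was 0.06 (SE 0.043, adjusted p = 0.225). It was called when scaling was omitted (adjusted p = 0.0296) or when Hepa1 control replicate 3 was left out (adjusted p = 0.0333). Cd80 (ENSMUSG00000075122, chromosome 16, 38455561 to 38496335, plus strand), which encodes a ligand for T cell receptors CD28 and CTLA4, had 45.5, 47.0 and 45.6 CPM in MEFs in ferroptotic medium, against 20.8, 24.5 and 22.5 CPM in control medium. Its MEF groups were apart, and it rose by 1.03 (SE 0.0539, adjusted p = 3.04e-23). It had 0.998, 0.689 and 1.01 CPM in Hepa1 cells in ferroptotic medium, against 0.719, 0.661 and 0.58 CPM in control medium. In Hepa1 cells it was low but above the floor in every library, with 54 reads in ferroptotic medium and 38 in control medium. The Hepa1 change of 0.47 (SE 0.3, adjusted p = 0.182) was not called. The difference for Cd80 was 0.56 (SE 0.305, adjusted p = 0.151), with a 95% interval of -0.06 to 1.17, so it was not resolved.

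Gdf15 and Sesn2 also respond to the stress factor ATF4, whose targets were followed as a separate list. The list held 15 genes, Atf4 itself among them, and Ddit3 was left out because it matched no single gene identifier. Of the 14 tested genes, 6 rose and 5 fell in MEFs (median log2 change -0.03), and 5 rose and 6 fell in Hepa1 cells (-0.04). Over all genes, 27.8% were called up and 27.2% down in MEFs, and 29.3% up and 28.8% down in Hepa1 cells. The difference of responses was called higher in MEFs for 5 of the 14 and lower for 4, against 20.9% and 23.3% of all genes. The smallest adjusted p in MEFs belonged to Ddit4 (1.15), Cebpb (-0.64), Asns (-0.45) and Vldlr (0.49), and in Hepa1 cells to Slc7a11 (-2.01), Psat1 (0.60), Phgdh (0.47) and Trib3 (0.32), given as log2 changes. The part of ATF4 in the values of Gdf15 and Sesn2 was not tested.

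Per kb of exon, the order of the members differed between the cell types. The highest levels in MEFs in ferroptotic medium were those of Ccng1 (162 CPM per kb) and Phlda3 (155), with Ddb2 the lowest (0.981). In MEFs in control medium they were Phlda3 (102) and Ccng1 (96.4), with Pidd1 the lowest (0.507). In Hepa1 cells in ferroptotic medium Phlda3 (262) and Ccng1 (182) led, and in control medium Phlda3 (190.2) and Plk2 (164), with Cd80 the lowest in both (0.243 and 0.176). Mdm2 had rank 10 in MEFs in ferroptotic medium at 23.9 CPM per kb, and rank 3 in Hepa1 cells in ferroptotic medium at 136. Spread over libraries was not used to separate neighbouring ranks.

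In control medium 8 members were called higher in MEFs than in Hepa1 cells and 27 lower, with a median log2 difference of -0.77, against 0.08 over all 15627 genes tested. Of all those genes 86.6% were called, 46.0% higher and 40.7% lower in MEFs. The members with the largest differences were Cd80 (5.65) on the higher side and Perp (-4.98), Pmaip1 (-4.61) and Gdf15 (-3.57) on the lower side, all log2 of MEF over Hepa1. Trp53 was lower in MEFs by 1.50 (SE 0.039, adjusted p = 3.24e-34) and Mdm2 by 2.33 (SE 0.0371, adjusted p = 1.34e-42). The fit behind these calls normalised all 12 libraries together, so its values need not follow CPM normalised per cell type. Ccng1, Ei24 and Zmat3 were called higher in MEFs (0.39, 0.44 and 0.08). Their mean CPM in control medium were lower in MEFs (338, 79.4 and 154) than in Hepa1 cells (378, 85.6 and 214). The other members called higher in MEFs also had the higher mean CPM there. This comparison between cell types depends on scaling, which moved the median of all genes by -0.564 when it was left out. Then 5 members were higher and 32 lower, and over all genes 5004 were higher and 9101 lower, against 7181 and 6356 with scaling. Cell type and genotype cannot be told apart in it.

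**Figure D4:**
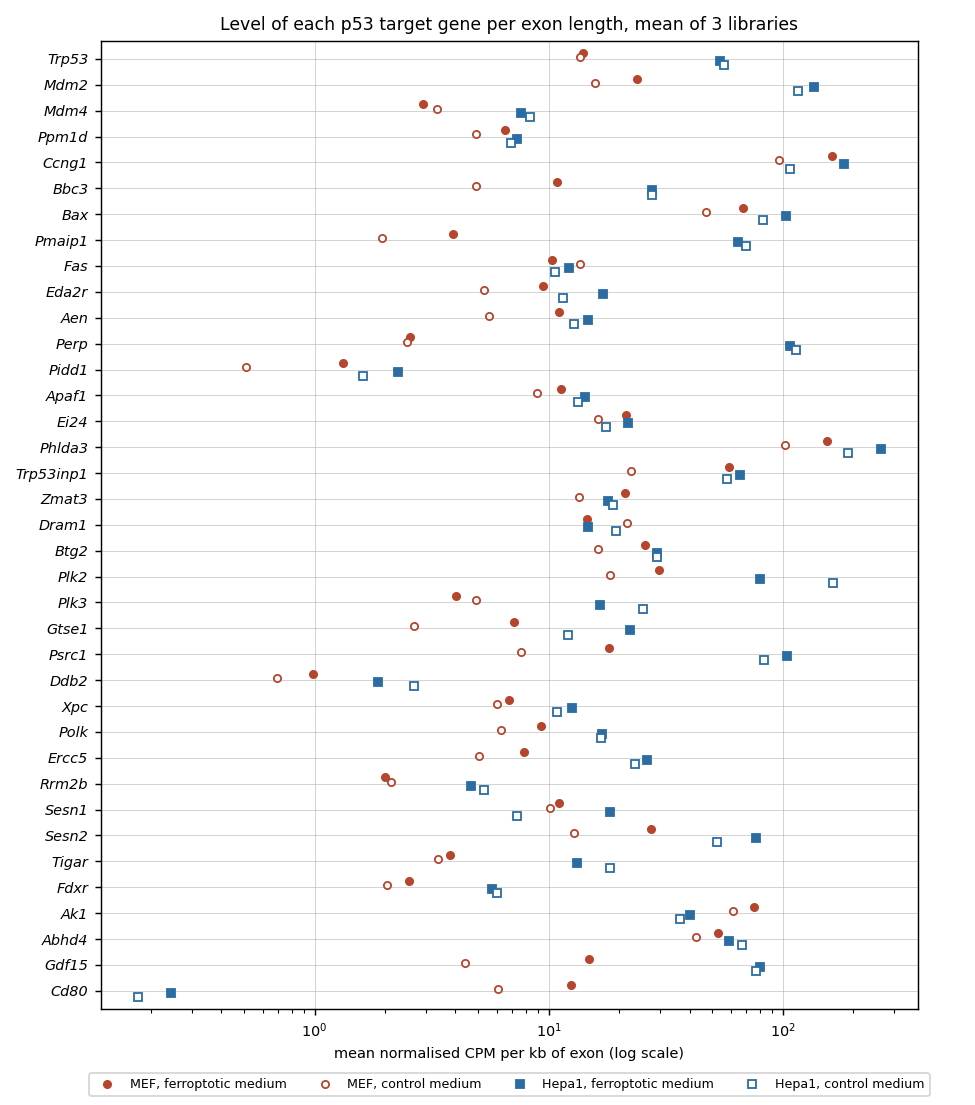
Mean normalised CPM per kb of exon (log axis) of each member in the 4 groups, 3 libraries each; circles are MEFs, squares Hepa1 cells, filled in ferroptotic and open in control medium. Values are normalised within each cell type. In MEFs most filled circles lie right of the open ones, and Cd80 stands far lower in Hepa1 cells than in MEFs.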

How the data were processed

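RNA of 12 libraries was sequenced, 3 in each of 4 groups taken from the sample titles. The deposited files hold raw read counts per Ensembl gene, as sample files and a series table that agree in all values. The submitters' processing notes name FastQC 0.11.9, Trimmomatic 0.39, STAR 2.7.10a, HTSeq 0.9.1 and the build GRCm38 (mm10), which the authors used to make these counts. Neither the strand setting nor the annotation release is given in the sources used here. How overlap reads were counted is therefore not known for the 5 members with an opposite-strand exon overlap (Ei24, Plk3, Ddb2, Rrm2b and Tigar). Reads on no gene made up 2.00 to 2.58% of a library and ambiguous reads 3.66 to 4.03%. The 5 summary lines of the table stayed out of totals and tests. GENCODE M21 gave names and coordinates.

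Within a cell type, the 6 libraries were tested with edgeR 4.0.16 in R 4.3.3 (filterByExpr, TMM scaling, quasi-likelihood F-test, Benjamini-Hochberg adjustment over all genes tested). The difference of responses and the cell type difference were contrasts in one fit of all 12 libraries. CPM were normalised inside the 6-library fit of the cell type, and CPM per kb divide them by the merged exon length. SE and 95% intervals come from the same fit. The biological coefficient of variation was 2.45% in MEFs and 3.08% in Hepa1 cells. On simulated counts, 85% of 1.25-fold and 99% of 2-fold changes were recovered in the MEF fit (14441 genes). Recovery was 79% and 100% in the Hepa1 fit (13169 genes), and 51% and 86% for the difference of responses (15627 genes). Of the calls in these fits, 3.66%, 5.79% and 5.52% were false, in the same order. The changed genes were a small part of all genes and lay above a minimum mean count. Recovery among genes with few reads, or with changes as widespread as here, was not simulated. Alternatives were DESeq2 1.42.0 size factors and Wald test, no scaling, limma 3.58.1 voom, other count filters, a replicate block, all 12 libraries in one fit, and leaving out each library.

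The members and lists were chosen with earlier results of these data known. Full values are given for the 5 core loop genes and for every member with an adjusted p under 0.05 and an absolute log2 change of at least 0.5 in either cell type. Of other lists, up to 4 genes with the smallest adjusted p are named. Figures use the same values.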

Additional observations from a re-analysis of the deposited data

Results flagged for a closer look

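For 29 of 37 members the response to ferroptotic medium differed between MEFs and Hepa1 cells by a called interaction term in edgeR. That call is the rule by which they are listed here. It is common, as 44.2% of all 15627 genes tested had a called difference. Values are log2 changes in MEFs minus log2 changes in Hepa1 cells, and their causes were not tested.

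The difference was above 1 for Plk2 1.72, Gdf15 1.7, Trp53inp1 1.2, Bbc3 1.14, Pmaip1 1.12 and Ddb2 1.02. It was between 0.5 and 1 for Psrc1 0.908, Pidd1 0.892, Aen 0.795, Zmat3 0.71, Btg2 0.664, Tigar 0.635, Sesn2 0.545, Polk 0.545 and Gtse1 0.526. Smaller positive differences were those of Abhd4 0.488, Ercc5 0.461, Mdm2 0.375, Fdxr 0.364, Plk3 0.319, Ppm1d 0.31, Eda2r 0.261, Apaf1 0.239, Bax 0.19, Ak1 0.154 and Phlda3 0.137. The change was lower in MEFs for Sesn1 -1.19, Fas -0.582 and Dram1 -0.173. The differences of Dram1, Phlda3, Ak1 and Fdxr are the ones whose call was lost when a single library was left out. Across the 29 members the adjusted p ran from 3.39e-29 to 0.0279.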

How the results depend on the processing

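Counts of members called stayed within 1.5 times the reported ones under the alternatives run for both media responses and for their difference: 26 to 31 up and 4 down in MEFs, 16 to 19 up and 7 to 10 down in Hepa1 cells, and 24 to 27 up and 2 to 3 down for the difference, with single libraries left out included. Without scaling, 5 members in place of 8 were higher in MEFs than in Hepa1 cells in control medium. Allowing 1 mismatch gave 21 members with a half-site in place of 11.

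Called cell type differences in control medium reversed without scaling for Ccng1 (-0.173, against 0.391 with scaling), Ei24 (-0.12, against 0.444) and Zmat3 (-0.486, against 0.0784). The value for Ppm1d, not called with scaling, was then -0.503. Some values near 0 changed sign too. In Hepa1 cells these were Bbc3 (-0.000296 with DESeq2 size factors, -0.00284 without a count filter, -0.000266 in DESeq2) and Btg2 (-0.000593, -0.0032 and -0.000679). The difference for Ccng1 was 0.0149 without scaling. In the cell type difference Apaf1 was 0.00121 with DESeq2 size factors and 0.00117 in DESeq2. With single libraries left out, log2 changes ran from -0.093 to 0.257 for Perp in MEFs. In Hepa1 cells they ran from -0.0976 to 0.0639 for Bbc3, from -0.0322 to 0.0384 for Btg2 and from -0.000522 to 0.042 for Polk. The differences ran from -0.0477 to 0.0212 for Ccng1 and from -0.00842 to 0.342 for Perp, which was called without MEF control replicate 3 (adjusted p = 0.0353). The causes were not tested.

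With the replicate block the counts were 29 up and 4 down in MEFs, 18 and 9 in Hepa1 cells, and 26 and 3 for the difference. Same-numbered libraries correlated at -0.0251 to 0.0522, so the numbers were not treated as pairs, and 1 of 6 libraries in ferroptotic medium (MEF replicate 3) matched its own number best. Values of Cd80 in Hepa1 cells and of Ddb2 and Pidd1 in MEFs rest on few reads.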

Other observations

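The regulators of p53 were followed as a list of 25 genes that are not members. In MEFs 9 rose and 4 fell of 25 tested, with a median log2 change of 0.10, and 55.0% of all genes were called. In Hepa1 cells 6 rose and 10 fell of 24 tested, with a median of -0.06, and 58.1% of all genes were called. The smallest adjusted p in MEFs belonged to Crebbp, a coactivator that acetylates p53 (0.49 (SE 0.0423, adjusted p = 8.66e-15)), Nop53, a nucleolar gene (-0.38 (SE 0.0354, adjusted p = 2.11e-13)), Cdkn2a, which encodes the MDM2 inhibitor ARF and the cell cycle inhibitor p16 (0.36 (SE 0.04, adjusted p = 3.56e-11)), and Ppp1r13b, which encodes a p53 partner (0.44 (SE 0.0571, adjusted p = 2.68e-09)). In Hepa1 cells they were Huwe1, a ubiquitin ligase gene (-0.46 (SE 0.0333, adjusted p = 2.02e-12)), Ppp1r13l, which encodes an inhibitor of p53 (-0.74 (SE 0.0589, adjusted p = 1.18e-11)), Trim24 (-0.40 (SE 0.0367, adjusted p = 2.47e-10)) and Chek1, a checkpoint kinase gene (1.41 (SE 0.176, adjusted p = 3.77e-08)). Cdkn2a had 80.0, 72.8 and 82.0 CPM in MEFs in ferroptotic medium, against 60.5, 60.5 and 62.0 CPM in control medium, with the groups apart. In Hepa1 cells Cdkn2a had 2 reads in all in ferroptotic medium and 1 in control medium, at or under the floor of a single library, so no fold is given.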
